A study of Homo sapiens with 6 samples.

Results

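Cyclins and cyclin-dependent kinases (CDKs) were followed in the human renal cancer line 786-O, which carried either a control hairpin (sh-Control, 3 libraries) or a hairpin RNA that targets CBX7 (sh-CBX7, 3 libraries). CBX7 is a chromobox subunit of Polycomb repressive complexes. The members were the protein-coding genes of the count table whose symbol is that of a cyclin of the A, B, C, D, E, F, H, K or T type, or CDK followed by a number. This gave 37 genes, 16 cyclins and 21 kinases, of 58735 genes in the table. Genes for CDK inhibitors do not match the rule. The rule uses symbols and no measured value, though it was set with earlier results of these data known. Both groups share the parental line, and the labels give neither the number of hairpins, whether a line was cloned or pooled, nor the time after introduction of the hairpin.

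A cyclin is a regulatory subunit that switches on a CDK by binding it, and the level of many cyclins rises and falls as a cell passes through its division cycle. D-type cyclins with CDK4 or CDK6 act in G1, E-type cyclins with CDK2 at the entry into S phase, A-type cyclins in S and G2, and B-type cyclins with CDK1 at mitosis. A second branch of the family (CDK7, CDK8, CDK9, CDK12, CDK13 and CDK19 with cyclins C, H, K and T) acts on RNA polymerase II or within the Mediator complex, and CDK7 with cyclin H also activates the CDKs of the cycle. Clear cell renal carcinoma lines that lack VHL function are known for high expression of CCND1, the cyclin D1 gene.

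The libraries held 16384151 to 18868874 counts, and members took 0.229% to 0.301% of them. CBX7 itself had 203, 240 and 183 counts in sh-Control replicates 1 to 3 and 143, 111 and 142 in sh-CBX7 replicates 1 to 3, so that it fell by 0.71 on the log2 scale (SE 0.13, edgeR adjusted p = 5.41e-05). sh-Control replicate 1 stood apart within its group, with a chi-square per gene of 9.23 and 5.78 against the other control libraries, where other pairs within a group had 2.85 to 4.32. Of 10 markers of the renal carcinoma line, PAX8, KRT8, KRT18, KRT19, VIM, CA12, EPAS1, MME and CDH6 passed the low count filter and LRP2 did not. In the edgeR fit CA12 (log2 fold change -1.22), CDH6 (-0.85) and PAX8 (-0.32) fell, MME (0.81), KRT8 (0.44), KRT18 (0.43) and KRT19 (0.23) rose, and EPAS1 (0.10) and VIM (-0.043) were not called. Of 8 immune markers 3 passed the filter, and PTPRC and CD3E had 0 counts in each library. Their summed level lay between 17.6 and 21.8 CPM (counts scaled to library size) per kb of exon in sh-Control and between 9.30 and 10.3 in sh-CBX7, most of it from LAPTM5 (means of 17.7 and 8.12). The 5 endothelial markers summed to 0.339 to 0.483 in sh-Control and 0.544 to 0.705 in sh-CBX7, with CDH5 at 0 counts. The 6 fibroblast markers summed to 2.13 to 2.61 and 2.96 to 3.49. The part of these markers in the results was not tested.

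Most tested cyclins among the members were lower in sh-CBX7, and most tested kinases among them were not called. Of 34 members that passed the low count filter, 17 (50%) were lower and 2 (5.88%) higher in sh-CBX7 (edgeR quasi-likelihood test, adjusted p below 0.05), and 15 were not called. Among all 14573 tested genes 53.3% were called, 27.2% lower and 26.1% higher. Of the 14 tested cyclins 12 were lower and 0 higher. Of the 20 tested kinases 5 were lower, 2 higher and 13 not called. By role, 11 of 13 tested members of the cell cycle groups were lower and 0 higher. In the other roles 6 of 21 were lower and 2 higher. The lower kinases included CDK1, CDK2 and CDK4 of the cell cycle groups. The median log2 fold change was -0.49 over the tested cyclins and -0.083 over the tested kinases, against -0.00595 over all tested genes. The libraries of the 2 groups did not overlap for 20 members, 17 lower and 3 higher, where 59% of all tested genes did not overlap (29.9% lower and 29.1% higher). Changes were moderate: 6 members, all cyclins, were called and moved by 0.5 or more on the log2 scale in either direction, and 1 (CCNA1) reached 1, where 27.9% and 8.53% of all tested genes did so. Without sh-Control replicate 1, 18 members were lower and 3 higher. In RNA from a whole culture, fewer cells in a phase of the cycle and less RNA per cell cannot be told apart.

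**Figure D1:**
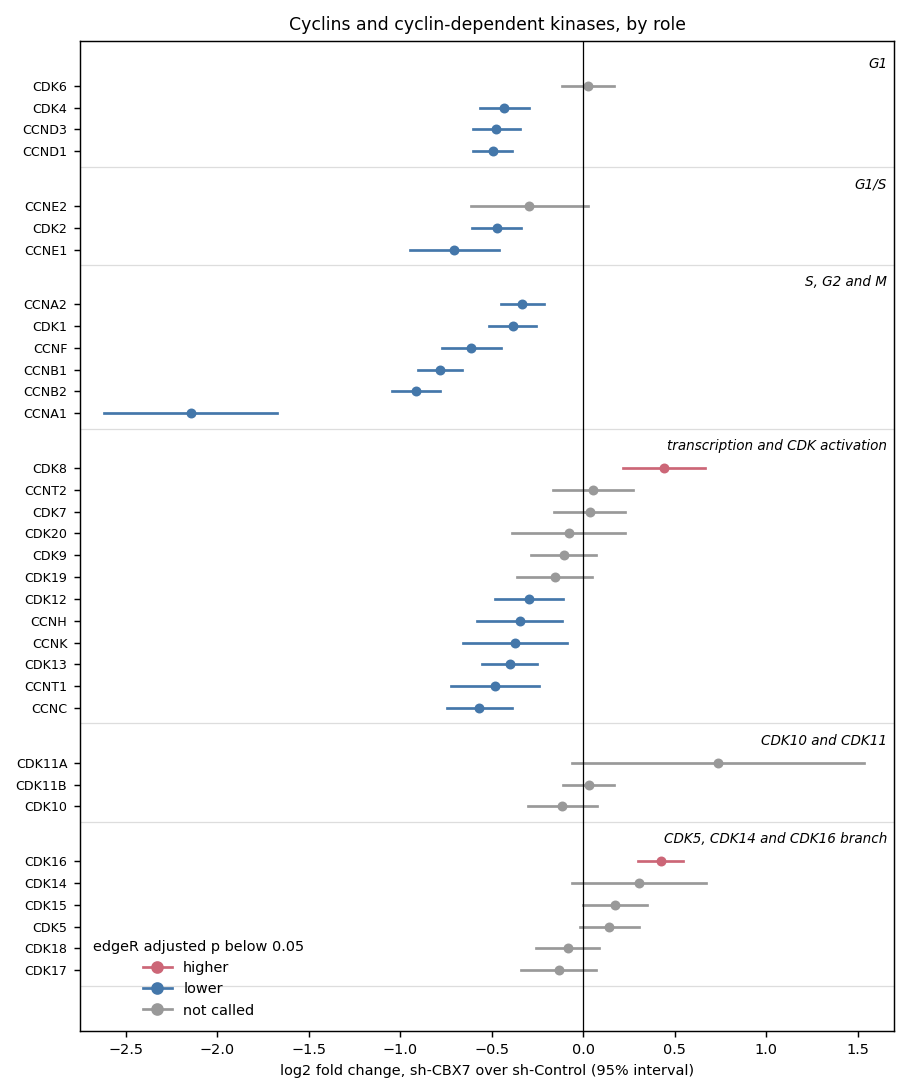
Log2 fold change (x axis, sh-CBX7 over sh-Control) of the 34 tested members, grouped by role, with bars for the 95% interval of the edgeR fit and colours for the call. The 11 called genes of the 3 cell cycle groups lie to the left of 0, while CDK8 and CDK16 lie to the right.

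The G1 members comprised the 3 D-type cyclins and their kinases CDK4 and CDK6. CCND1 (chromosome 11, 69641087 to 69654474, GRCh38), the cyclin D1 gene and the member with the highest level, was measured at 1025, 1040 and 1072 CPM in sh-Control and at 782.4, 712.5 and 730.5 CPM in sh-CBX7. Each sh-CBX7 library lay below each control library, and CCND1 fell by 0.495 on the log2 scale (SE 0.05, edgeR adjusted p = 3.47e-08). CCND3, which encodes cyclin D3, had 153.3, 135.4 and 148.8 CPM in sh-Control and 108.2, 101.2 and 105.3 CPM in sh-CBX7, and fell by 0.47 (SE 0.06, edgeR adjusted p = 1.06e-06). CCND2 was near the limit of detection, with 0, 2 and 0 counts in sh-Control and 3, 0 and 1 in sh-CBX7, and was not tested. CCND1 made up most of the D-type cyclin transcript, 89.6% ± 0.64 (SD, n = 3) per kb in sh-Control against 89.5% ± 0.20 (SD, n = 3) in sh-CBX7 (exact permutation p = 0.80, two-sided). The shares of the 2 groups overlapped.

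The kinases of G1 differed from each other. CDK4 was measured at 171.8, 148.6 and 150.6 CPM in sh-Control and at 121.4, 115.2 and 112.5 CPM in sh-CBX7, and fell by 0.43 on the log2 scale (SE 0.06, edgeR adjusted p = 6.41e-06). CDK6, its paralog, had 61.5, 68.8 and 72.8 CPM in sh-Control and 68.6, 68.5 and 69.9 CPM in sh-CBX7, with overlapping groups and a log2 fold change of 0.027 (95% interval -0.12 to 0.17, edgeR adjusted p = 0.763). As a share of CDK4 and CDK6 per kb, CDK4 took 91.5%, 89.3% and 88.9% in sh-Control and 87.3%, 86.7% and 86.2% in sh-CBX7. These shares did not overlap (exact permutation p = 0.10, two-sided, the smallest that 3 against 3 libraries can give; adjusted p = 0.267 over 8 paralog groups). Exons of CDK4 share 43.2% of their bases with TSPAN31 on the opposite strand, and the strand setting of the counting is not given in the sources used here. TSPAN31 itself had a log2 fold change of 0.21 and was not called (edgeR adjusted p = 0.115).

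At the entry into S phase, CCNE1, the cyclin E1 gene, had 17.3, 15.1 and 16.2 CPM in sh-Control and 9.98, 10.99 and 8.86 CPM in sh-CBX7. The groups were apart, and CCNE1 fell by 0.70 on the log2 scale (SE 0.12, edgeR adjusted p = 2.68e-05). CCNE2, which encodes the other E-type cyclin, had 7.51, 8.30 and 9.70 CPM against 6.47, 5.80 and 8.47 CPM, with overlapping groups and a log2 fold change of -0.30 (95% interval -0.62 to 0.023, edgeR adjusted p = 0.112). CCNE2 was called without sh-CBX7 replicate 3 (log2 fold change -0.47, edgeR adjusted p = 0.026) and without sh-Control replicate 1 (-0.38, edgeR adjusted p = 0.0445), and 37.0% of its exon bases are shared with INTS8 on the opposite strand, which fell by 0.39. CDK2, the kinase of both E-type cyclins, was measured at 82.2, 79.0 and 77.7 CPM in sh-Control and at 58.3, 59.2 and 54.8 CPM in sh-CBX7. It fell by 0.47 (SE 0.06, edgeR adjusted p = 1.93e-06), with every sh-CBX7 library below every control library. CDK3 had 1 to 6 counts per library and was not tested, and 91.2% of its exon bases belong also to the readthrough gene TEN1-CDK3.

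Each of the 6 tested members that act in S phase, G2 and mitosis fell. CCNB1 (chromosome 5, 69167010 to 69178245, GRCh38) and CCNB2 (chromosome 15, 59105078 to 59125045, GRCh38) encode the B-type cyclins that carry CDK1 into mitosis. CCNB1 had 179.5, 181.2 and 177.3 CPM in sh-Control and 109.4, 101.7 and 101.7 CPM in sh-CBX7, a fall of 0.78 on the log2 scale (SE 0.06, edgeR adjusted p = 1.31e-10). CCNB2 went from 133.8, 125.7 and 133.6 CPM to 68.1, 73.5 and 67.3 CPM, a fall of 0.91 (SE 0.06, edgeR adjusted p = 3.64e-11). The highest sh-CBX7 library of either gene thus lay well under the lowest control library. CDK1 itself fell less, from 199.97, 232.3 and 222.6 CPM to 164.3, 176.1 and 161.1 CPM (-0.39 on the log2 scale, SE 0.06, edgeR adjusted p = 1.80e-05). Cyclin A2, from CCNA2, went from 197.7, 199.6 and 188.7 CPM to 157.6, 159.2 and 148.5 CPM, the smallest fall of these 6 genes (-0.33, SE 0.06, edgeR adjusted p = 3.36e-05). CCNF encodes an F-box cyclin that serves a ubiquitin ligase and does not activate a CDK. It had 48.6, 48.7 and 50.99 CPM in sh-Control and 35.4, 31.2 and 30.2 CPM in sh-CBX7 (-0.61, SE 0.08, edgeR adjusted p = 6.59e-07).

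CCNA1 (ENSG00000133101; chromosome 13, 36431520 to 36442882, GRCh38), the A-type cyclin gene best known from the germ line, had the furthest fall of the tested members. Its counts were 130, 114 and 90 in sh-Control and 18, 30 and 30 in sh-CBX7, or 7.81, 6.27 and 5.52 CPM against 0.955, 1.81 and 1.69 CPM. All control libraries lay above 5 CPM and all sh-CBX7 libraries below 2 CPM. CCNA1 fell by 2.14 on the log2 scale (SE 0.23, edgeR adjusted p = 4.58e-08), a 4.42-fold lower level. CCNB3, a B-type cyclin gene of meiosis, had 0 to 11 counts per library and was not tested.

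**Figure D2:**
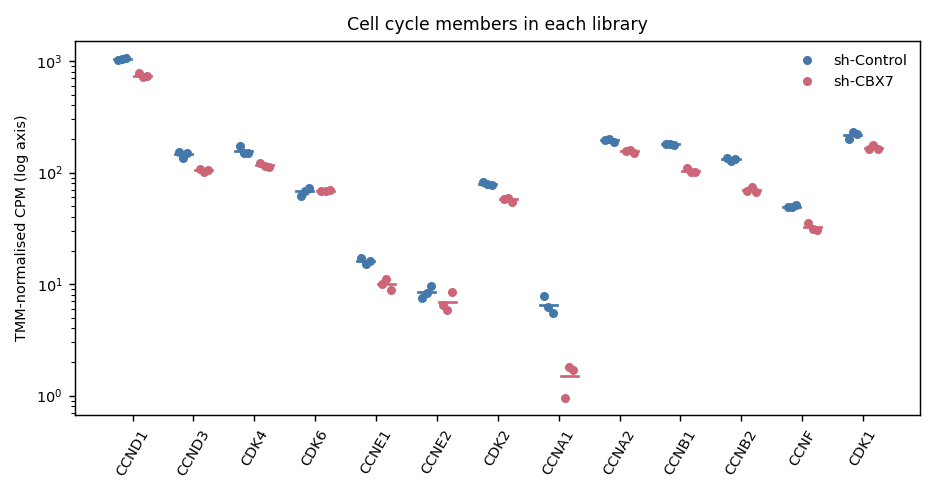
TMM-normalised CPM (log axis) of the 13 tested cell cycle members in each library, with points for libraries and a line at the mean of each group. The groups are apart for 11 genes and overlap for CDK6 and CCNE2, and CCNA1 shows the widest gap.

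Promoters are shown for the mitotic members because these genes fell together. Their textbook control runs through a pair of promoter elements, the cell cycle homology region (CHR, TTTGAA) and the CCAAT box. Most tested G1 and G1/S members fell as well (3 of 4 and 2 of 3), and a part of these elements in the falls was not tested. RefSeq windows (GRCh38.p14) of 250 bases before to 50 after a start were found for 33 of 37 members. CCND1, CCND2, CCNE2 and CDK2, all of the G1 and G1/S groups, had no window and were not searched. Only windows with a match are printed. CCNA1, with the furthest fall of the tested members, and the untested CCNB3 held neither element, and CCNA2 and CCNB1 held no TTTGAA. Where a window held several matches, the nearest one upstream of a start is shown. In each line capitals mark the match, and ATTGG is CCAAT read on the other strand.
CCNB2, CHR, chr15:59105105-59105134, plus strand: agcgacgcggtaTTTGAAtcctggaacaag
CDK1, CHR, chr10:60778453-60778482, plus strand: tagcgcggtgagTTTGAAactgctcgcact
CCNF, CHR, chr16:2429350-2429379, plus strand: gggccgggtgcgTTTGAAaactggggtggg
CCNB2, CCAAT, chr15:59105080-59105109, plus strand: gcgcagggccgcCCAATggggcgcaagcga
CCNB1, CCAAT, chr5:69167083-69167112, plus strand: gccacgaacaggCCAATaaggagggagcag
CCNA2, CCAAT, chr4:121823922-121823951, minus strand: gcgagcgctttcATTGGtccatttcaatag
CDK1, CCAAT, chr10:60778420-60778449, plus strand: acgggctacccgATTGGtgaatccggggcc
CCNF, CCAAT, chr16:2429329-2429358, plus strand: cccccgggcaggCCAATgggagggccgggt
The CHR matches begin at positions -29 (CCNB2), -13 (CDK1) and -85 (CCNF). The CCAAT matches begin at -46 (CDK1), -54 (CCNB2), -55 (CCNB1), -56 (CCNA2) and -106 (CCNF). Positions are counted from a start given by RefSeq, and CDK1 has windows for 2 starts. Its values here are from the downstream start. From the other start, the upstream CDK1 matches begin at -161 (CHR) and -150 (CCAAT).

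The search covered both strands, with matches of different motifs allowed to overlap. TTTGAA was found in 3 of 7 promoters of the S, G2 and M members and in 0 of 5 of the G1 and G1/S members with a window. Among 27305 genes with a RefSeq window the share was 18.2%. CCAAT was found in 5 of 7, 1 of 5 and 39.7% in the same order. Of the E2F forms TTTCCCGC, TTTCGCGC, TTTGCCGC and TTTGGCGC at least 1 was found in 1 of 7 (CDK1), 0 of 5 and 3.99%. Among lower members with a window, 4 of 15 held TTTGAA, 9 of 15 CCAAT and 1 of 15 an E2F form. Among tested members that were not lower, these numbers were 1 of 16, 6 of 16 and 3 of 16. These 3 with an E2F form were CDK10, CDK11B and CDK19. The matches describe letters in a window and were not tested as binding sites.

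Of the 12 members that act on transcription or activate other CDKs, 6 were lower, 1 higher and 5 not called. CCNC and its kinases CDK8 and CDK19 form the kinase module of Mediator, the complex that links transcription factors to RNA polymerase II. CCNC had 47.4, 55.1 and 59.6 CPM in sh-Control and 39.5, 33.3 and 36.5 CPM in sh-CBX7 and fell by 0.57 on the log2 scale (SE 0.09, edgeR adjusted p = 7.61e-06). CDK8 (chromosome 13, 26254104 to 26405238, GRCh38) went the other way, from 11.96, 14.2 and 13.99 CPM to 18.5, 17.4 and 18.5 CPM, and rose by 0.44 (SE 0.11, edgeR adjusted p = 0.00157). CDK19, its paralog, had 22.8, 26.6 and 25.8 CPM against 21.5, 21.02 and 25.0 CPM (log2 fold change -0.16, 95% interval -0.36 to 0.050, edgeR adjusted p = 0.194). Per kb, CDK8 took 52.6%, 53.0% and 53.4% of the CDK8 and CDK19 transcript in sh-Control and 64.5%, 63.7% and 61.1% in sh-CBX7. The size of these shares rests on merged exon lengths of 3538 bases (CDK8) and 7492 bases (CDK19). In CPM, CDK19 stood above CDK8 in each library. The groups were apart by 10.1 percentage points on average (exact permutation p = 0.10, two-sided, the smallest possible; adjusted p = 0.267 over 8 groups).

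The T-type cyclins join CDK9 in P-TEFb, the factor that releases paused RNA polymerase II. CCNT1 was measured at 14.2, 17.04 and 16.4 CPM in sh-Control and at 10.8, 12.5 and 10.9 CPM in sh-CBX7 and fell by 0.48 (SE 0.12, edgeR adjusted p = 0.00133). CCNT2 had 17.7, 22.4 and 22.03 CPM against 20.5, 22.2 and 21.8 CPM, with a log2 fold change of 0.053 (95% interval -0.16 to 0.27, edgeR adjusted p = 0.691). The CCNT1 share of the T-type transcript per kb was 49.7%, 48.4% and 47.9% in sh-Control and 39.3%, 40.9% and 38.2% in sh-CBX7, again without overlap (exact permutation p = 0.10, two-sided, the smallest possible; adjusted p = 0.267). CDK9 itself had a log2 fold change of -0.11 (95% interval -0.28 to 0.070) and was not called in the fit of all 6 libraries, but was without sh-Control replicate 2 (-0.20, edgeR adjusted p = 0.040).

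**Figure D3:**
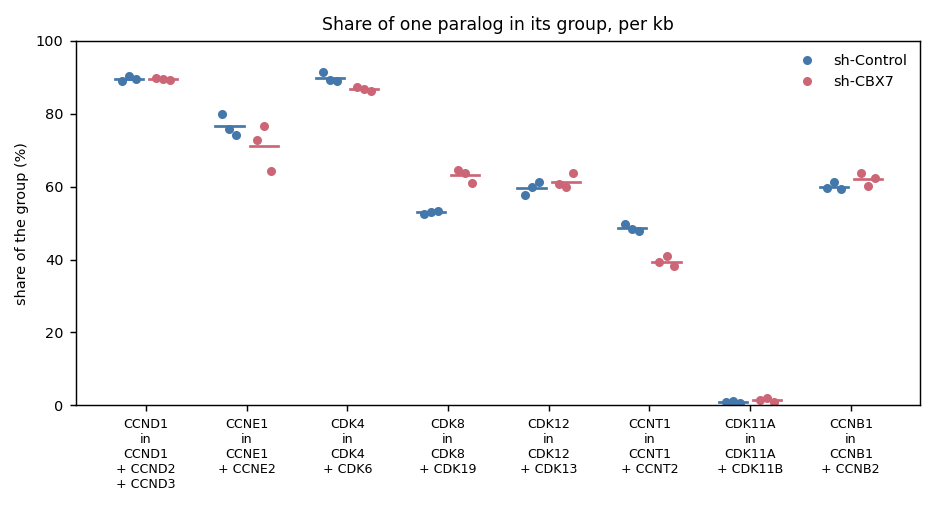
Share (y axis, percent, from CPM per kb) of 1 paralog in the summed level of its group, with points for libraries and a line at the mean of each group of 3. The mean of CDK8 is 53.0% in sh-Control and 63.1% in sh-CBX7 and that of CCNT1 48.6% and 39.5%, whereas the CCND1 share is near 89.5% in both groups.

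Cyclin K pairs with CDK12 and CDK13, kinases of elongating RNA polymerase II. CDK13 had 42.98, 44.2 and 44.4 CPM in sh-Control and 33.8, 33.2 and 32.7 CPM in sh-CBX7 and fell by 0.40 on the log2 scale (SE 0.07, edgeR adjusted p = 7.23e-05). CDK12 was measured at 29.9, 33.7 and 35.7 CPM against 26.6, 25.1 and 29.1 CPM (-0.30, SE 0.09, edgeR adjusted p = 0.00801) and lost the call without sh-Control replicate 3 (edgeR adjusted p = 0.0592) or without sh-CBX7 replicate 2 (edgeR adjusted p = 0.0543). CCNK fell by 0.37 (SE 0.14, edgeR adjusted p = 0.0258), from 8.96, 9.90 and 7.79 CPM to 6.90, 7.19 and 6.55 CPM. CCNK was the least firm call of the set: 59.5% of its exon bases are shared with CCDC85C on the opposite strand. Its adjusted p was 0.124 without sh-Control replicate 2, 0.0586 without sh-CBX7 replicate 1 and 0.0864 without sh-CBX7 replicate 3.

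CDK7 with cyclin H is the CDK-activating kinase and a part of the general transcription factor TFIIH. CDK7 was at 22.8, 21.6 and 22.5 CPM in sh-Control and at 22.7, 24.5 and 21.4 CPM in sh-CBX7 (log2 fold change 0.035, 95% interval -0.16 to 0.23). CCNH fell by 0.35 (SE 0.11, edgeR adjusted p = 0.0122), from 14.6, 15.6 and 17.98 CPM to 12.9, 12.2 and 12.6 CPM, and lost the call without sh-Control replicate 3 (edgeR adjusted p = 0.0958). Exons of CCNH share 12.7% of their bases with RASA1 on the opposite strand, a gene that fell by 1.51. CDK20, a kinase linked to cell cycle entry and cilia, was not called (-0.080, 95% interval -0.39 to 0.23).

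The RNA level of cyclins relative to their kinases was then expressed as a ratio per kb in each library. The 7 partnerships were chosen after the values of the members had been seen. The p-values do not allow for that choice, and ratios of RNA do not measure the proteins. The ratio of CCNC to CDK8 and CDK19 went furthest, from 1.28, 1.26 and 1.40 in sh-Control to 0.844, 0.748 and 0.739 in sh-CBX7, 59.2% of the control mean. The ratio of CCNA2, CCNB1 and CCNB2 to CDK1 was 3.71, 3.17 and 3.26 against 2.95, 2.74 and 2.85, and that of CCNH to CDK7 was 0.253, 0.287 and 0.318 against 0.226, 0.199 and 0.235. In these 3 and in the ratio of E-type cyclins to CDK2 (0.405 ± 0.022 against 0.371 ± 0.012, SD, n = 3 per group) the sh-CBX7 libraries all lay below the controls. Each of the 4 had an exact permutation p = 0.10 (two-sided, the smallest possible; adjusted p = 0.175 over 7 ratios). The ratio of D-type cyclins to CDK4 and CDK6 was 4.40 ± 0.32 against 4.05 ± 0.10 with overlapping groups (exact permutation p = 0.30). The difference in the E-type ratio was -0.034, and -0.022 without sh-Control replicate 3. The difference in the D-type ratio was -0.35, and -0.53 without sh-Control replicate 1. The ratios for the T-type cyclins with CDK9 (exact permutation p = 0.90) and for CCNK with CDK12 and CDK13 (exact permutation p = 0.80) overlapped as well.

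**Figure D4:**
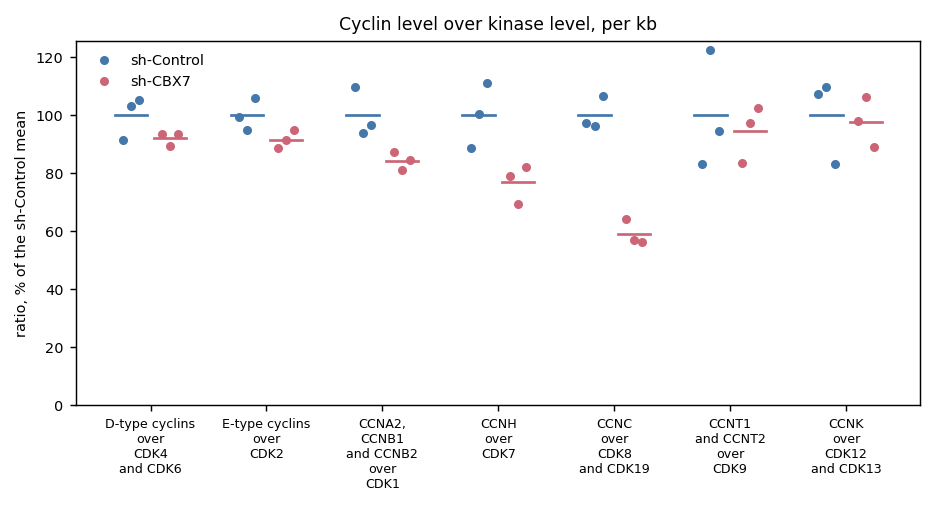
Cyclin level over kinase level (CPM per kb) in each library, as percent of the sh-Control mean, for 7 partnerships. Points are libraries and lines are means of 3, and the ratio of CCNC to CDK8 and CDK19 stands at 59.2% in sh-CBX7.

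None of CDK10, CDK11A and CDK11B was called by edgeR. CDK11B, a kinase tied to splicing, was at 57.3 to 61.7 CPM in sh-Control and 58.1 to 63.5 CPM in sh-CBX7 (log2 fold change 0.029, 95% interval -0.11 to 0.17). CDK11A is a near-identical copy of CDK11B, so reads can be split between them or lost, and its 10 to 31 counts per library are uncertain (log2 fold change 0.74, 95% interval -0.063 to 1.53; edgeR adjusted p = 0.0476 without sh-CBX7 replicate 3). CDK10 had a log2 fold change of -0.11 (95% interval -0.30 to 0.073).

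In the branch of CDK5 and its relatives CDK14 to CDK18, 1 of 6 was higher and 0 lower by edgeR. CDK16 (chromosome X, 47217860 to 47229997, GRCh38), a kinase switched on by the membrane-bound cyclin Y, had 168.8, 148.3 and 158.8 CPM in sh-Control and 217.1, 210.3 and 210.8 CPM in sh-CBX7. It rose by 0.42 on the log2 scale (SE 0.06, edgeR adjusted p = 2.35e-06), with each sh-CBX7 library above each control library. CDK5, a kinase best known from neurons, had 41.8, 36.5 and 36.5 CPM against 44.3, 40.6 and 41.7 CPM (log2 fold change 0.14, 95% interval -0.020 to 0.30, edgeR adjusted p = 0.132). It was called without sh-Control replicate 1 (0.21, edgeR adjusted p = 0.0187) and with upper quartile normalization (0.19, edgeR adjusted p = 0.0419), and 11.3% of its exon bases are shared with SLC4A2 on the opposite strand, which rose by 0.18. CDK15 was at 27.9 to 32.03 CPM in sh-Control and 32.3 to 35.9 CPM in sh-CBX7, apart but not called (0.17, 95% interval -0.0019 to 0.35, edgeR adjusted p = 0.0897), and was called with upper quartile normalization (0.22, edgeR adjusted p = 0.0314). CDK14, a partner of cyclin Y like CDK16, had 3.73 to 5.77 CPM against 5.15 to 6.15 CPM (0.31, 95% interval -0.060 to 0.67), and was called without sh-Control replicate 3 (0.49, edgeR adjusted p = 0.0367). CDK17 and CDK18 had log2 fold changes of -0.13 and -0.086 and were not called.

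Set per kb of merged exon, which allows genes to be compared, CCND1 had the highest level of the members in both groups, 216.5 ± 4.88 (SD, n = 3) CPM per kb in sh-Control against 153.6 ± 7.51 (SD, n = 3) in sh-CBX7. In sh-Control CCNB1 (70.1 ± 0.76) and CCNA2 (69.8 ± 2.09) came next and did not differ beyond their spread, followed by CDK1 (55.5 ± 4.22), CDK4 (49.6 ± 4.06) and CCNB2 (46.8 ± 1.64). In sh-CBX7 CCNA2 (55.4 ± 2.05) stood above CDK1 (42.5 ± 2.01) and CCNB1 (40.8 ± 1.73), and CCNB2 (24.9 ± 1.21) stood below CDK16 (32.6 ± 0.58). Members of the transcription branch lay below these genes in sh-Control, from CDK9 at 16.3 ± 1.91 to CCNK at 1.08 ± 0.13, a range that also held CCNF (7.84 ± 0.21), CCNE1 (6.35 ± 0.44), CDK6 (5.52 ± 0.46), CCNA1 (2.72 ± 0.49) and CCNE2 (1.93 ± 0.25). Merged exons hold sequence of every annotated transcript, so levels of genes with long rare exons can be understated. CDK13 has a merged length of 25093 bases, and the use of its exons was not measured. The paralog shares and the ratios per kb carry the same limit.

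**Figure D5:**
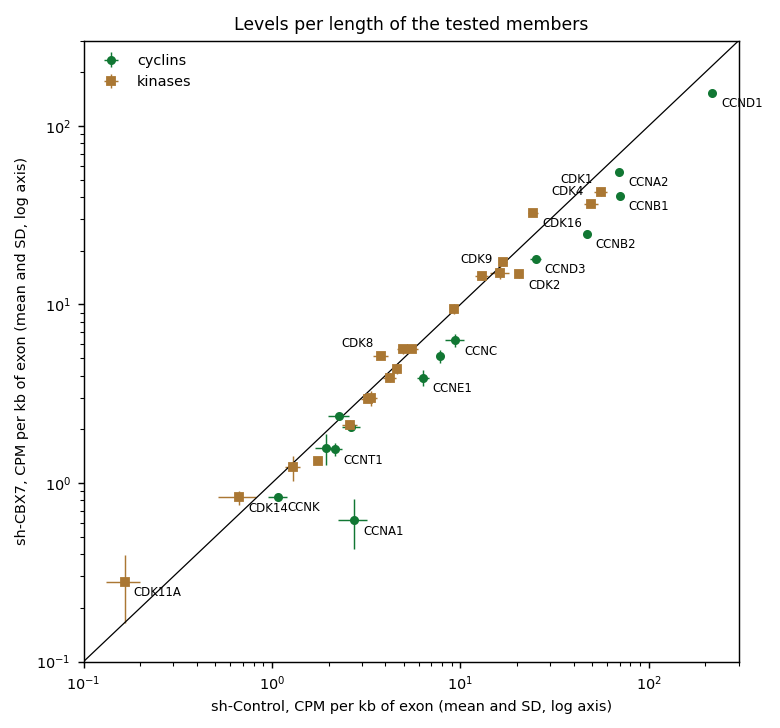
Level per kb of exon of the 34 tested members in sh-Control (x axis) and sh-CBX7 (y axis), both on log axes, with the SD of 3 libraries as bars and the line of equal level. Most cyclins lie under the line, while CDK8 and CDK16 lie above it.

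Other genes of the pathway were taken from fixed lists that hold no member, and are described by counts in the same edgeR fit, in which 27.2% of all tested genes fell and 26.1% rose. Of 14 tested cyclins and cyclin partners outside the rule, 6 rose and 1 fell (median log2 fold change 0.058). CABLES1, an adaptor of CDKs, had 0.66, CCNJL 0.62, CCNL2, a cyclin of splicing, 0.29, and CCNG1, a p53 target, -0.34. Of 15 tested activators and inhibitors of CDKs, 9 fell and 4 rose (median -0.36). The 4 that rose all restrain CDKs, while the 9 that fell hold both activators and inhibitors. The median therefore gives no direction for CDK regulation. The inhibitor CDKN1A had 1.59, CDKN2D 0.82, the phosphatase CDKN3 -0.67 and CDC37, the kinase chaperone that loads CDK4, -1.04. Of 30 genes of cyclin degradation, 17 fell and 3 rose (median -0.26), and without sh-Control replicate 2 or sh-Control replicate 3 the number that rose was 0. The activators of the anaphase-promoting complex CDC20 and FZR1 had -0.89 and -0.61, and its ubiquitin-conjugating enzymes UBE2S and UBE2C -0.83 and -0.51. Without sh-CBX7 replicate 1 or sh-CBX7 replicate 3 the number that rose was 1.

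Among 19 RB and E2F proteins, which control entry into S phase and the mitotic genes, 7 fell and 5 rose (median 0.0036). E2F2 had a log2 fold change of -1.24, FOXM1, a transcription factor of mitotic genes, -0.63, E2F4 -0.58 and MYBL2 0.64. Of 24 tested partners of transcriptional CDKs, 5 fell and 2 rose (median -0.016), against 9 and 4 without sh-Control replicate 1. NELFCD and NELFE, subunits of the complex NELF that holds paused polymerase, had -0.90 and -0.76, while the other NELF subunits of the list were not called. MEPCE, which caps the RNA that sequesters P-TEFb, had -0.51, and the TFIIH subunit GTF2H1 had 0.69. A further list held kinases of the CDKL type, binding partners of CDK5 and CDK2, and CDKAL1. Of its 11 tested genes 2 rose and 2 fell, with CDK2AP1 at 0.47, CDK2AP2 at 0.28, the CDK5 activator CDK5R1 at -0.52 and CDK5RAP2 at -0.24. Without sh-Control replicate 3 the number that fell was 1.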

How the data were processed

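Poly-A RNA of 6 libraries was sequenced with a directional kit, per the labels' protocols. The authors deposited read counts per gene as whole numbers without normalization. FastQC, Trimmomatic, HISAT2 2.0.5, featureCounts 1.5.0-p3 and the build hg19 are named in the submitters' processing notes, whereas 58724 of 58735 genes in the deposited count table match GENCODE 29 (GRCh38, the build used here) in start and end. Columns called siCBX7 were matched by target and replicate number to the libraries labelled sh-CBX7. Counts were filtered with filterByExpr (14573 genes left), normalised with TMM and compared by the quasi-likelihood test of edgeR 4.0.16 (R 4.3.3) without a replicate block. P-values were adjusted by Benjamini-Hochberg over all tested genes and called below 0.05, and the SE is the log2 fold change divided by the square root of F. The fits were also run on simulated data in which far fewer genes changed, as many up as down. That run does not check calls at the share seen here. Levels per kb use the deposited gene length. The members and lists were chosen with earlier results of these data known. All members may be named, with CBX7, RNF26 and up to 4 genes per list by smallest p. Whether each library had its own culture is not in the labels. The p-values therefore reflect the spread among these 6 libraries alone, which may be technical. Alternatives were DESeq2 1.42.0 with its size factors, limma voom (limma 3.58.1), other normalizations and filters, the block and leaving out libraries.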

Additional observations from a re-analysis of the deposited data

How the results depend on the processing

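Of 34 tested members, 25 kept their call (lower, higher or not called) in all alternative fits that tested them, and no called member changed sign. The 9 others were CCNE2, CCNH, CCNK, CDK12, CDK9, CDK11A, CDK14, CDK15 and CDK5. CCNK also lost its call with upper quartile normalization (edgeR adjusted p = 0.0522) and with DESeq2 (adjusted p = 0.0636). With upper quartile normalization 4 members were higher and 16 lower, the median of all genes being 0.043, and 6 partners of transcriptional CDKs were higher. DESeq2 called 1 gene of cyclin degradation higher. Leaving out 1 library gave 15 to 18 lower and 2 to 3 higher members. The same fits gave 0 to 2 degradation genes higher, 2 to 4 partners of transcriptional CDKs higher and 5 to 9 lower, and 1 to 3 genes of the CDKL and CDK5 list lower. The CBX7 log2 fold change ranged from -0.77 to -0.65. The difference in the CCND1 share ranged from -0.47 to 0.17 percentage points, that in the T-type ratio from -0.039 to 0.015 and that in the CCNK ratio from -0.027 to 0.0064, each changing sign. The differences in the E-type and D-type ratios ranged from -0.044 to -0.022 and from -0.53 to -0.23. With the replicate number as a block, 2 members were higher and 17 lower, as without it, and 4 and 8 partners of transcriptional CDKs were higher and lower. Deviations from the group means correlated at 0.071, 0.078 and 0.037 between libraries of equal number, and each library correlated best with its own number, but the numbers were not taken as pairs. Added after seeing the data, leaving out the 8 tested members that share over 10% of their exon bases with another gene left 12 lower and 2 higher of 26. Besides CCNE2, CCNH, CCNK, CDK4 and CDK5, these were CCND1, CDK2 and CDK11A. On the opposite strand CCND1 shares 10.3% with LTO1 and CDK2 14.5% with AC025162.1, which had 0 counts. CDK11A shares 52.1% with AL031282.2 on the same strand. In the part of the promoter window from 100 bases before to 50 after the start, 3 of 33 members (9.09%) held TTTGAA in place of 5 (15.2%). Over all 27305 genes with a RefSeq window the share went from 18.2% in the whole window to 8.46% in this part. The cause of these shifts was not tested. Depth limits low genes: the SE was 0.23 for CCNA1 and 0.05 for CCND1.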
